A study of Drosophila melanogaster with 6 samples.

Results

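Xrp1, a stress-induced bZIP transcription factor, was described here together with 9 genes, in RNAseq of fly heads after feeding with paraquat (PQ). PQ is a redox-cycling herbicide that generates superoxide. The 9 genes join broken DNA, excise damaged DNA, signal its presence or, for rpr, act in cell death. The 10 genes were taken by symbol from the deposited table, in which they are 10 of 14604 genes and 10 of the 9853 that could be tested. They are Xrp1, the end-joining genes Irbp and Ku80, the excision nuclease genes Ercc1 and mei-9, the kinase genes mei-41, tefu and lok, the transcription factor gene p53, and the death gene rpr. They were chosen with the values of this same contrast known, so their levels and fold changes are given as a description. The test across all genes included them, but no p is given for them and its calls support nothing about them.

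The libraries came from heads of Canton S males of WT genotype, aged 3 to 5 days, with 30 males per group. All were fed 2.5% sucrose over 12 h, which for PQ-fed males also held PQ at 5 mM and for sucrose-fed males held nothing else, with 3 libraries from each group. The study describes more replicates per feeding, and the others were not analysed here. The libraries are described as independent biological replicates. Each value is RPKM, reads scaled to gene length and to the reads mapped in the library. Comparisons between genes and between libraries rest on this scaling. The summed RPKM still differed between libraries, from 452656 in PQ-fed replicate 1 to 494293 in sucrose-fed replicate 2.

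The proteins form a chain from damage to response. Irbp (the fly Ku70) and Ku80 bind as a pair to the ends of a double-strand break and start end joining. Ercc1 and mei-9 (the fly XPF) form the nuclease that cuts beside a bulky lesion in nucleotide excision repair. tefu (ATM) and mei-41 (ATR) are the kinases that sense damage, lok (Chk2) relays their signal to p53, and p53 activates rpr, whose product removes the block on caspases. Xrp1 is a p53 target after irradiation, dimerizes with Irbp18 and drives the response of cells to ribosomal and proteotoxic stress.

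Xrp1 and Irbp were higher in every PQ-fed library than in any sucrose-fed library, by 1.31-fold each, and mei-9 by 1.18-fold. Ercc1 and rpr were lower in every PQ-fed library, at 0.609 and 0.736 of the sucrose-fed mean. The groups overlapped for the other 5 genes. Thus 3 of 10 genes had all PQ-fed values above the sucrose-fed ones, where 3.11% of all genes tested did, and 2 had them below, where 4.47% did. None of the 10 passed the test across all genes (limma, adjusted p under 0.05), which 0.0812% of genes passed as higher in PQ-fed heads and 0.0% as lower. That is 8 and 0 of 9853 genes, with 218 (2.21%) and 165 (1.67%) at an unadjusted p under 0.05. Since the choice used this contrast, nothing is read from these shares.

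**Figure D1:**
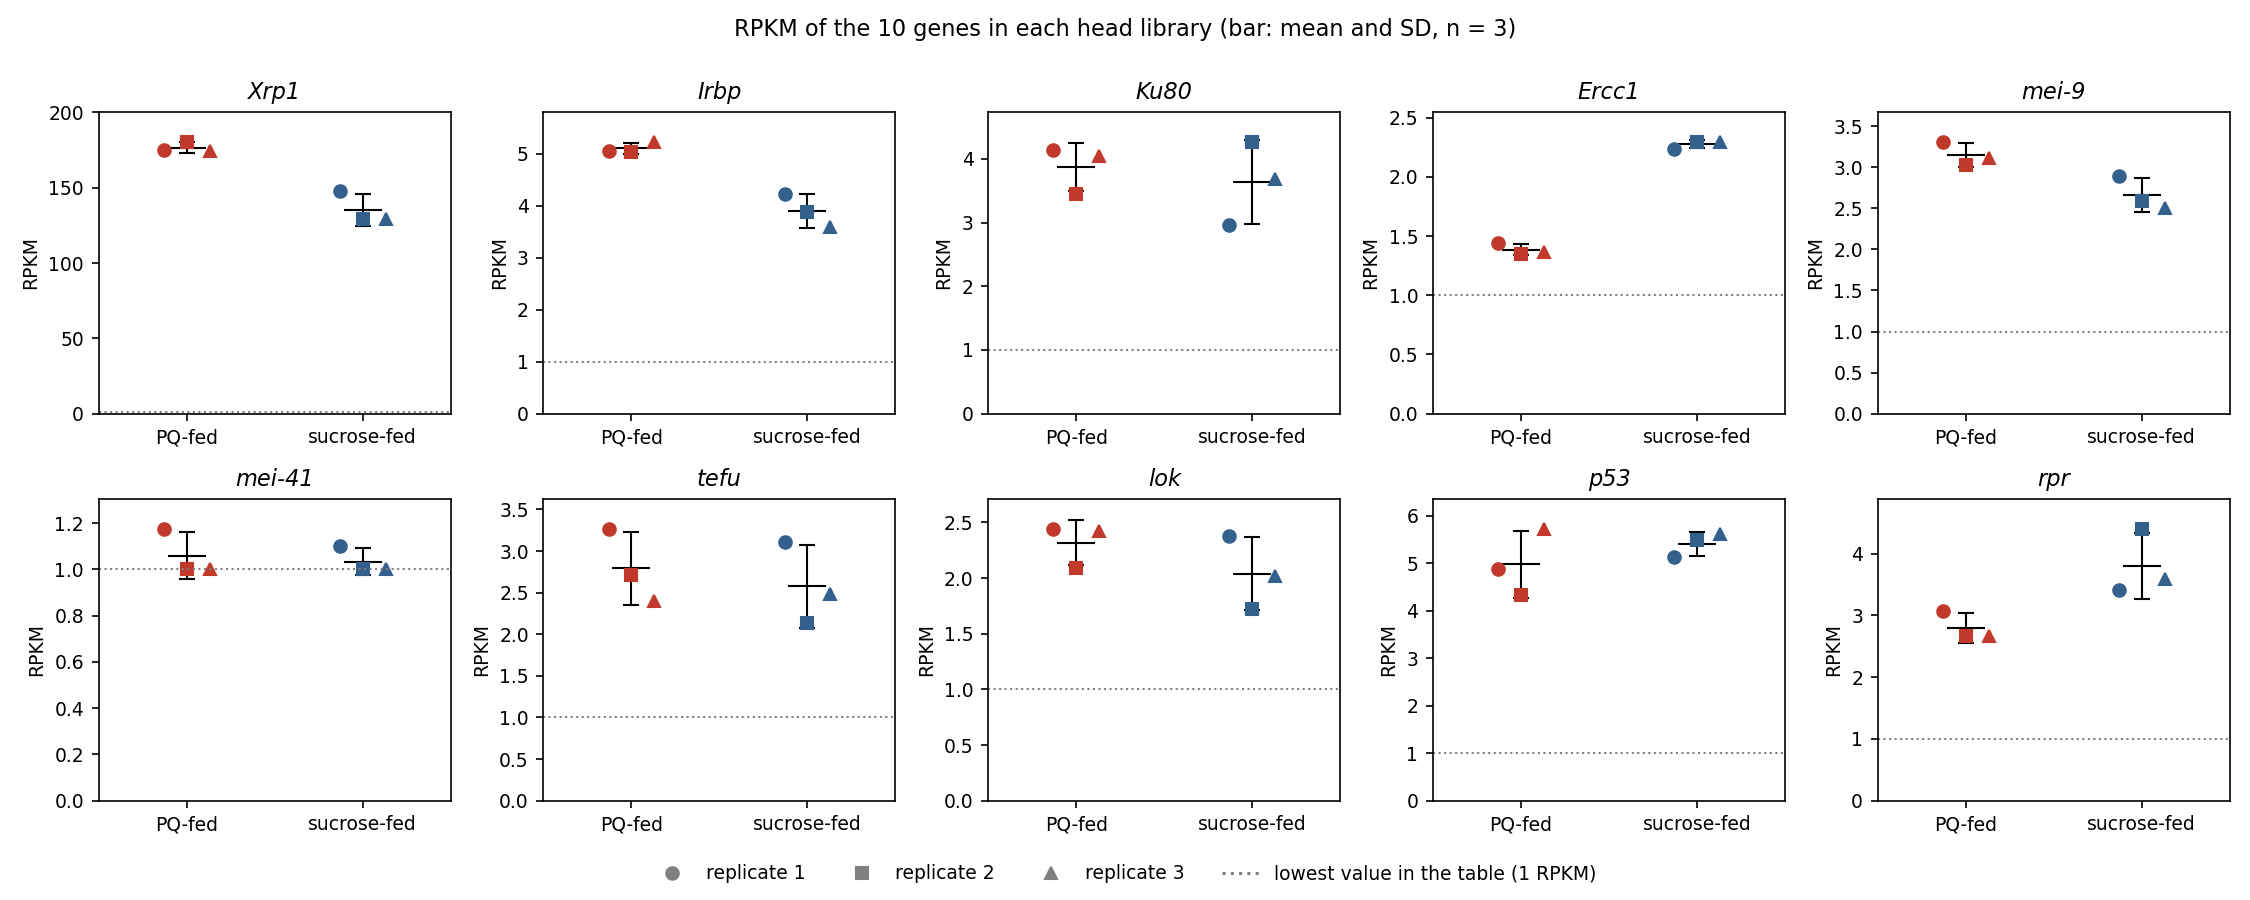
RPKM (vertical axis, from 0, own scale for each gene) of the 10 genes in the 3 PQ-fed (red) and 3 sucrose-fed (blue) head libraries, with the mean and SD as bars and the lowest value of the table, 1 RPKM, as a dotted line. Xrp1, Irbp and mei-9 sit higher in all PQ-fed libraries, Ercc1 and rpr lower, and the other 5 genes overlap.

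Between 34.8% and 35.5% of genes in each library stand at exactly 1 RPKM and none lies below it, so 1 was read as a floor under which a level is not known. The sources used here do not say whether it is a floor or an amount added to every value. Values run down to 1.000011 RPKM, in tilB of sucrose-fed replicate 1, and as an added amount this would take a library of at least 58000000000 reads for 1 whole read in its span of 1523 bp. The folds of the scarce genes depend on this reading. For the 10 genes they are also given for an added 1 where they move by over 1.5 times. For other scarce genes, among them mus308, phr, Rad1 and Ilp8, they are not given. A gene at the floor in all 6 libraries was left out, and for genes near it the fold change on log2(RPKM + 0.5) understates the true one. Depth per gene is not known, so the errors given are those between replicates. The libraries match their tissue: ninaE, the rhodopsin of the outer photoreceptors, had 7242 to 7864 RPKM in PQ-fed and 7129 to 7961 RPKM in sucrose-fed heads. All 6 male germline markers were at the floor throughout, as were 10 of 12 markers of dividing cells, among them PCNA (mus209). The summed level of 6 hemocyte markers was 55.0, 65.7 and 74.5 RPKM in PQ-fed and 71.1, 52.8 and 48.5 RPKM in sucrose-fed heads, with 5 of 6 log2 fold changes positive (median 0.51). He and NimC1, of these, were at the floor in sucrose-fed replicates 2 and 3, and NimC1 also in PQ-fed replicate 1. The summed level of 4 fat body markers was 401, 384 and 439 RPKM in PQ-fed and 686, 528 and 340 RPKM in sucrose-fed heads, with Fbp1 at the floor throughout and the other 3 log2 fold changes negative. For 4 neuron markers the sum was 931.4, 903.0 and 800.7 RPKM in PQ-fed and 895.6, 737.6 and 914.5 RPKM in sucrose-fed heads. Their log2 fold changes were positive for 3 and negative for 1 (median 0.20). All 4 photoreceptor markers had negative ones (median -0.06), as had 2 of 4 glia markers (median -0.01). The part of these cells in the values below was not tested, and in bulk heads fewer cells of a type and less RNA per cell cannot be told apart.

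Xrp1 (FBgn0261113, dm3 3R:14740690-14752571, plus strand) was by far the most abundant of the 10. It had 175, 181 and 174 RPKM in PQ-fed heads, against 148, 129 and 129 RPKM in sucrose-fed heads. The PQ-fed libraries lay close together, and the nearest sucrose-fed library, replicate 1, was below all of them. The means were 177 ± 3.40 RPKM in PQ-fed and 135 ± 10.7 RPKM in sucrose-fed heads (SD, n = 3 each), a log2 fold change of 0.39 (standard error, SE, 0.07). Of the genes tested, 178 had a log2 fold change at least as high, Xrp1 included. In sucrose-fed heads its level exceeded that of 93.3% of genes tested. Leaving out single libraries gave log2 fold changes of 0.36 to 0.45.

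Irbp18, crc and RpS12, genes listed for the Xrp1 circuit, did not pass the test. Irbp18 (CG6272 in the table), its bZIP partner, averaged 34.3 ± 3.72 RPKM in PQ-fed and 35.9 ± 3.63 RPKM in sucrose-fed heads, with a 95% interval of -0.32 to 0.19 around a log2 fold change of -0.07. crc, the fly ATF4 and a second bZIP factor of the stress response, averaged 377 RPKM in PQ-fed and 371 RPKM in sucrose-fed heads (log2 fold change 0.03, 95% interval -0.13 to 0.18). RpS12, the ribosomal protein through which Xrp1 is induced in cells short of ribosomal proteins, averaged 543 RPKM in PQ-fed and 568 RPKM in sucrose-fed heads (-0.06, interval -0.29 to 0.17). The ratio of Xrp1 to Irbp18 RPKM within a library was 5.79, 4.80 and 4.97 in PQ-fed heads and 4.57, 3.27 and 3.59 in sucrose-fed heads, without overlap. The ratio of Xrp1 to crc was 0.485, 0.461 and 0.459 in PQ-fed and 0.396, 0.348 and 0.351 in sucrose-fed heads, also without overlap. Xrp1 was chosen on this contrast and its own groups did not overlap, so both ratios are a description. Of the 8 genes listed for the Xrp1 circuit besides Xrp1, 0 passed limma's test in either direction, also at an unadjusted p under 0.05, and their median log2 fold change was 0.03, beside -0.02 over all genes tested.

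Irbp (FBgn0011774, 3R:7235771-7238162, plus strand) followed the pattern of Xrp1 at a far lower level. It had 5.06, 5.05 and 5.24 RPKM in PQ-fed heads, against 4.23, 3.89 and 3.59 RPKM in sucrose-fed heads, and the groups did not overlap. The means were 5.11 ± 0.107 RPKM in PQ-fed and 3.90 ± 0.323 RPKM in sucrose-fed heads (SD, n = 3 each), a log2 fold change of 0.35 (SE 0.08). In the current annotation the snoRNA gene snoRNA:Irbp-a lies inside Irbp on the same strand, and how reads were divided between them is not given in the sources used here.

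Ku80 (FBgn0041627, 2L:15768512-15771280, minus strand), the partner subunit of Irbp, did not separate the groups. It had 4.13, 3.45 and 4.05 RPKM in PQ-fed heads, against 2.96, 4.27 and 3.69 RPKM in sucrose-fed heads. Both the lowest and the highest Ku80 value belonged to sucrose-fed libraries. Its log2 fold change was 0.09 (SE 0.14) and ran from -0.03 to 0.20 as single libraries were left out. The ratio of Irbp to Ku80, subunits that act as a pair, was 1.22, 1.46 and 1.29 in PQ-fed heads and 1.43, 0.911 and 0.973 in sucrose-fed heads. These ratios overlapped, so an imbalance of the pair was not resolved with 3 libraries a group.

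Downstream of the Ku pair, Lig4, the ligase that seals the joined ends, averaged 5.73 ± 0.589 RPKM in PQ-fed and 5.39 ± 0.426 RPKM in sucrose-fed heads (log2 fold change 0.08, 95% interval -0.17 to 0.33). mus308, the polymerase of microhomology-mediated joining, averaged 1.22 RPKM in PQ-fed and 1.13 RPKM in sucrose-fed heads. Of the 3 end-joining genes besides Irbp and Ku80, 0 passed limma's test, also unadjusted, and their log2 fold changes ran from 0.05 to 0.08.

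Ercc1 (FBgn0028434, 2R:10740470-10741453, plus strand), the smaller subunit of the excision nuclease, had the largest log2 fold change in size of the 10 genes. It had 1.44, 1.35 and 1.37 RPKM in PQ-fed heads, against 2.24, 2.30 and 2.30 RPKM in sucrose-fed heads. The groups were far apart relative to their spread, but all PQ-fed values lay close above the floor. The means were 1.39 ± 0.0489 RPKM in PQ-fed and 2.28 ± 0.0338 RPKM in sucrose-fed heads (SD, n = 3 each), a log2 fold change of -0.56 (SE 0.07). Of the genes tested, 29 had one at least as low, Ercc1 included. The size depends on the pseudocount, with -0.68 at a pseudocount of 0.1 and -0.46 at 1. With 1 RPKM subtracted from every value, the means were 0.386 RPKM in PQ-fed and 1.28 RPKM in sucrose-fed heads, a ratio of 0.302 and a log2 fold change of -1.01.

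The replicates of Ercc1 agreed unusually closely. Its SD within groups was 0.0291 on the log2 scale, against a median of 0.199 for the 1000 genes nearest to it in level, of which 0 had a smaller one. The same count was 57 for mei-9 and 99 for Irbp, and between 232 and 601 for the other 7 genes. limma moves the spread of each gene towards that of genes of like level, so the SE given for Ercc1 is wider than its own replicates alone would give. Ercc1 also shares 88 bp with Ciao1, a gene of iron-sulphur protein assembly on the opposite strand. Ciao1 averaged 22.5 RPKM in PQ-fed and 24.7 RPKM in sucrose-fed heads (log2 fold change -0.13, adjusted p = 0.951 by limma). Whether counting used strand is not given, so reads of the shared stretch may belong to either gene.

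mei-9 (FBgn0002707, X:4208263-4212834, minus strand), the catalytic subunit that works with Ercc1, stood on the other side. It had 3.31, 3.03 and 3.11 RPKM in PQ-fed heads, against 2.89, 2.59 and 2.51 RPKM in sucrose-fed heads. The groups did not overlap, though PQ-fed replicate 2 and sucrose-fed replicate 1 were close. The means were 3.15 ± 0.145 RPKM in PQ-fed and 2.66 ± 0.202 RPKM in sucrose-fed heads (SD, n = 3 each), a log2 fold change of 0.21 (SE 0.08). In the current annotation lncRNA:CR44957 overlaps mei-9 on the same strand. How reads were divided between them is not given in the sources used here.

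Because the subunits differed in opposite directions, their ratio differed more between the groups than any other ratio computed here. The ratio of mei-9 to Ercc1 RPKM was 2.30, 2.24 and 2.27 in PQ-fed heads, against 1.29, 1.13 and 1.09 in sucrose-fed heads. It averaged 2.27 ± 0.0263 in PQ-fed and 1.17 ± 0.107 in sucrose-fed heads (SD, n = 3 each). With 1 RPKM subtracted it averaged 5.59 in PQ-fed and 1.30 in sucrose-fed heads. Both genes were chosen on this contrast, so the ratio is a description as well. Of the 12 other genes of nucleotide excision repair, 0 passed limma's test in either direction, also at an unadjusted p under 0.05, and their median log2 fold change was -0.07. The damage-binding Xpac averaged 9.44 RPKM in PQ-fed and 10.3 RPKM in sucrose-fed heads (-0.11, 95% interval -0.39 to 0.17). mus210, the fly XPC that recognizes the lesion, averaged 30.9 RPKM in PQ-fed and 30.3 RPKM in sucrose-fed heads (0.03, interval -0.12 to 0.17). mus201, the fly XPG that makes the other cut, averaged 2.23 RPKM in PQ-fed and 2.08 RPKM in sucrose-fed heads (0.08, interval -0.13 to 0.29).

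**Figure D2:**
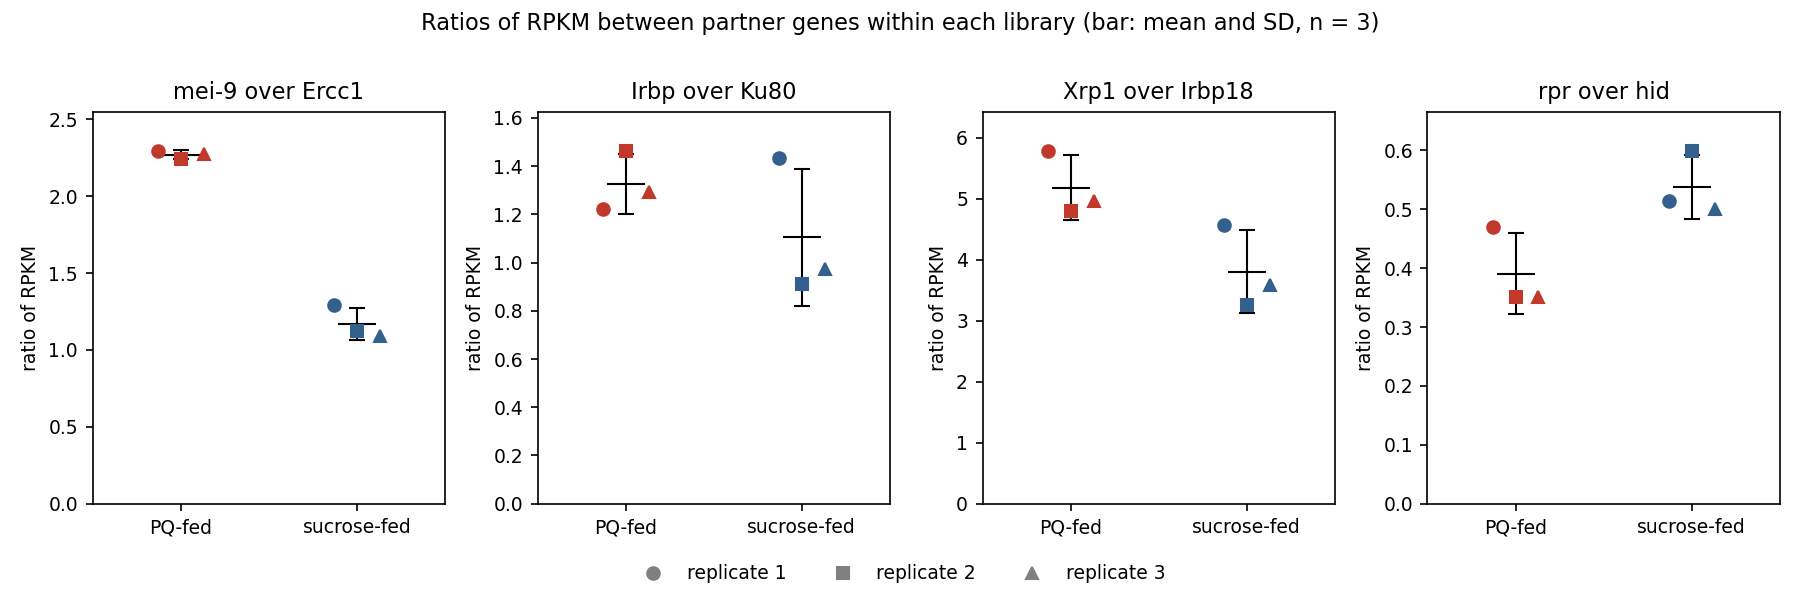
Ratio of RPKM between genes whose products act together (vertical axis, from 0) in each of the 3 PQ-fed (red) and 3 sucrose-fed (blue) libraries, with the mean and SD as bars. The ratio of mei-9 to Ercc1 averaged 2.27 in PQ-fed and 1.17 in sucrose-fed heads. The ratios of Irbp to Ku80 overlap between the groups. Each ratio holds a gene chosen on this contrast, so the ratios are a description.

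The sensor and relay kinases were scarce in heads and their groups overlapped. mei-41 (FBgn0004367, X:16285794-16293601, plus strand) had 1.18 RPKM in PQ-fed replicate 1 and 1.10 RPKM in sucrose-fed replicate 1 and was at the floor in the other 4 libraries, so its level was not resolved. With 1 RPKM subtracted it averaged 0.0585 RPKM in PQ-fed and 0.0332 RPKM in sucrose-fed heads. tefu (FBgn0045035, 3R:11057922-11067884, minus strand) had 3.27, 2.71 and 2.40 RPKM in PQ-fed heads, against 3.11, 2.13 and 2.48 RPKM in sucrose-fed heads. Its replicates within a group differed more than the group means did, with a log2 fold change of 0.10 (SE 0.15).

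lok (FBgn0019686, 2L:20061477-20064381, plus strand) had 2.44, 2.09 and 2.43 RPKM in PQ-fed heads, against 2.38, 1.72 and 2.02 RPKM in sucrose-fed heads. Its log2 fold change was 0.16 (SE 0.12), and the groups overlapped through sucrose-fed replicate 1. For mei-41, tefu and lok alike, replicate 1 was the highest library in each group. lok shares 127 bp with vls on the opposite strand, which averaged 4.68 RPKM in PQ-fed and 4.52 RPKM in sucrose-fed heads.

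p53 (FBgn0039044, 3R:18875379-18879804, minus strand) had 4.87, 4.33 and 5.73 RPKM in PQ-fed heads, against 5.13, 5.48 and 5.62 RPKM in sucrose-fed heads. PQ-fed replicate 3 had the highest value of all 6 libraries and PQ-fed replicates 1 and 2 the lowest, so the groups overlapped. The log2 fold change was -0.12 (SE 0.11). The current annotation gives p53 4 transcripts, which a single value per gene does not separate. p53 shares 1215 bp with Gr94a, a gustatory receptor gene on the opposite strand, which was at the floor in all PQ-fed libraries and had 1.12 and 1.24 RPKM in sucrose-fed replicates 1 and 2, with replicate 3 at the floor. Corp, a negative regulator of p53, averaged 2.09 ± 0.238 RPKM in PQ-fed and 2.53 ± 0.382 RPKM in sucrose-fed heads (-0.22, 95% interval -0.52 to 0.07). grp, the fly Chk1, averaged 26.2 RPKM in PQ-fed and 27.8 RPKM in sucrose-fed heads (-0.08, interval -0.25 to 0.08), and mus304, the fly ATRIP, 1.27 RPKM in PQ-fed and 1.30 RPKM in sucrose-fed heads. Of the 12 sensing and checkpoint genes tested besides these members, 0 passed limma's test, also unadjusted, with 3 positive and 9 negative log2 fold changes (median -0.07), where negative values also prevailed over all genes tested (4153 positive and 5693 negative).

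rpr (FBgn0011706, 3L:18390653-18391503, minus strand) was lower in PQ-fed heads. It had 3.07, 2.66 and 2.66 RPKM in PQ-fed heads, against 3.41, 4.40 and 3.59 RPKM in sucrose-fed heads. The groups did not overlap, and sucrose-fed replicate 2 stood highest. The means were 2.80 ± 0.238 RPKM in PQ-fed and 3.80 ± 0.530 RPKM in sucrose-fed heads (SD, n = 3 each), a log2 fold change of -0.38 (SE 0.11). It was -0.28 without sucrose-fed replicate 2, and 89 of the genes tested, rpr included, had one as low as in all libraries or lower.

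The other caspase activators beside rpr did not pass the test. hid (W in the table), which antagonizes the same inhibitor, averaged 7.23 ± 0.599 RPKM in PQ-fed and 7.05 ± 0.371 RPKM in sucrose-fed heads (log2 fold change 0.03, 95% interval -0.19 to 0.25). grim averaged 1.54 RPKM in PQ-fed and 1.84 RPKM in sucrose-fed heads (-0.21, interval -0.55 to 0.13), and skl 6.42 RPKM in PQ-fed and 6.56 RPKM in sucrose-fed heads (-0.04, interval -0.46 to 0.39). th, the inhibitor of apoptosis that these proteins bind, averaged 139 RPKM in PQ-fed and 133 RPKM in sucrose-fed heads (0.06, interval -0.10 to 0.22). The ratio of rpr to hid was 0.470, 0.351 and 0.351 in PQ-fed and 0.514, 0.600 and 0.501 in sucrose-fed heads, without overlap. As rpr was chosen on this contrast and its own groups did not overlap, this ratio is a description.

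Among the caspase genes, Nc, the initiator, averaged 9.06 RPKM in PQ-fed and 8.19 RPKM in sucrose-fed heads (0.14, 95% interval -0.11 to 0.38). Ice, an effector, averaged 11.5 RPKM in PQ-fed and 11.2 RPKM in sucrose-fed heads, and Ark, the fly Apaf-1 on which Nc assembles, 14.0 RPKM in PQ-fed and 13.9 RPKM in sucrose-fed heads. Of the 13 cell death genes tested besides rpr, 0 passed limma's test, also unadjusted, and their median log2 fold change was 0.03.

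Ranked by RPKM, the 10 genes spanned a wide range, and 9 of them lay in the lowest 25% of levels of the genes tested in sucrose-fed heads. In PQ-fed heads the order was Xrp1, Irbp, p53, Ku80, mei-9, rpr, tefu, lok, Ercc1 and mei-41. Neighbours in this order whose libraries overlapped were Irbp with p53, and each pair from mei-9 through rpr and tefu to lok. In sucrose-fed heads the order was Xrp1, p53, Irbp, rpr, Ku80, mei-9, tefu, Ercc1, lok and mei-41. There Xrp1 and p53 stood clear of the next gene, Irbp, rpr and Ku80 overlapped in turn, and so did mei-9, tefu, Ercc1 and lok. In PQ-fed heads Ercc1 was thus below lok without overlap, while in sucrose-fed heads the ranges of these genes overlapped.

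**Figure D3:**
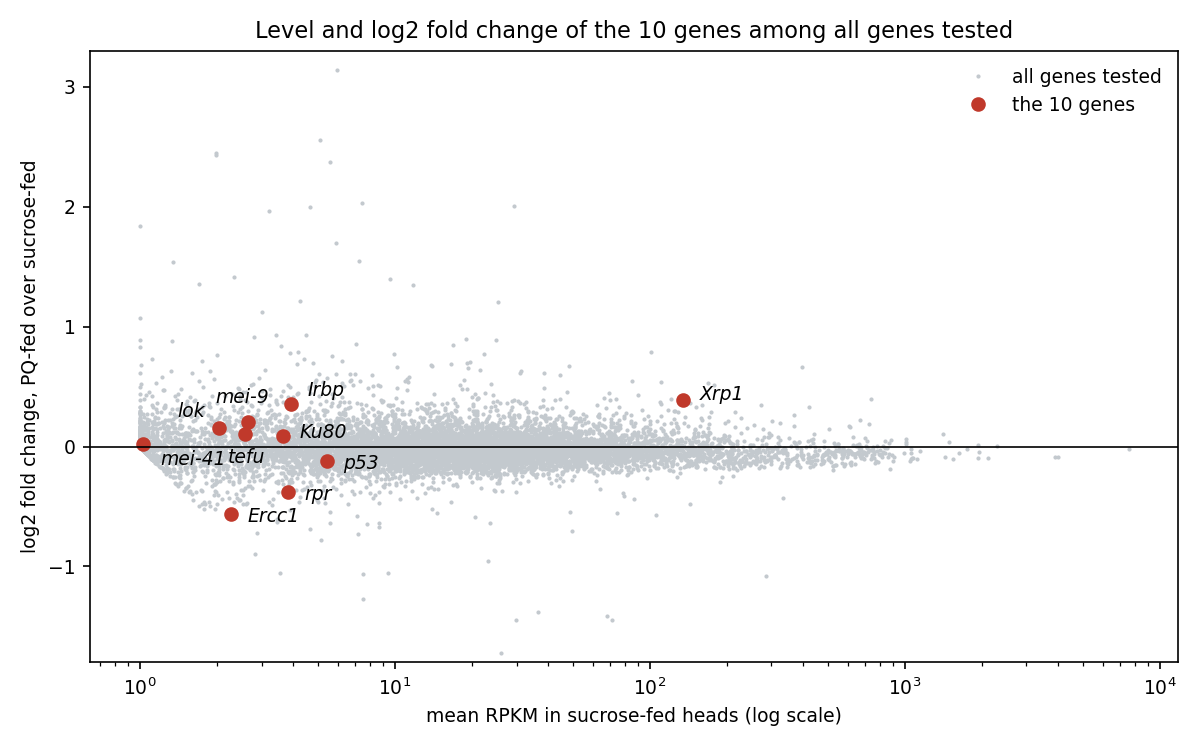
Mean RPKM in sucrose-fed heads (horizontal log axis) against the log2 fold change of PQ-fed over sucrose-fed heads (vertical axis) for the 9853 genes tested (grey) and the 10 genes (red). Xrp1 lies at 135 RPKM with a log2 fold change of 0.39, while Ercc1 lies at 2.28 RPKM with -0.56, near the slanting lower edge that the floor of 1 RPKM sets.

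The wider repertoire of repair and death genes was taken from 10 lists drawn up by role. Besides the 10 members the lists held 102 genes, of which 101 were found in the table, Parp being the exception, and 92 could be tested. Of these, 0 passed limma's test as higher and 0 as lower in PQ-fed heads, with 0 and 1 at an unadjusted p under 0.05. Their log2 fold changes had a median of -0.01, with 44 positive and 48 negative, and ran from -0.31 to 0.26, and Xrp1, Irbp, Ercc1 and rpr, whose choice used these values, lay outside that range. Groups did not overlap for 3 of the 92 as higher and 3 as lower, beside 3.11% and 4.47% of all genes tested.

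The 1 gene past the unadjusted threshold was okr, the fly Rad54 that helps the recombinase invade a template. It had 2.49, 2.36 and 2.88 RPKM in PQ-fed heads, against 3.21, 3.35 and 2.96 RPKM in sucrose-fed heads, a log2 fold change of -0.26 (limma adjusted p = 0.951). The groups of okr did not overlap, but it did not pass adjustment. The recombinase spn-A averaged 4.93 RPKM in PQ-fed and 5.11 RPKM in sucrose-fed heads (-0.04, 95% interval -0.32 to 0.24). Of the complex that resects breaks, mre11, rad50 and nbs had log2 fold changes of 0.03, 0.05 and -0.05. Blm (mus309 in the table), the helicase that dissolves recombination intermediates, averaged 2.64 RPKM in PQ-fed and 2.49 RPKM in sucrose-fed heads (0.07, interval -0.15 to 0.30). Of 19 tested genes of resection and recombination, 0 passed limma's test and the median log2 fold change was -0.02.

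Other listed genes were picked out after their values were seen, for being at an end of the range or having groups without overlap. phr, the photolyase that reverses pyrimidine dimers, had the lowest log2 fold change of the 92 (-0.31, limma adjusted p = 0.951). It averaged 1.49 RPKM in PQ-fed and 1.97 RPKM in sucrose-fed heads, with overlap. Thd1, a thymine DNA glycosylase, had the highest (0.26, adjusted p = 0.951), with 34.7 ± 4.58 RPKM in PQ-fed and 29.3 ± 7.35 RPKM in sucrose-fed heads, also with overlap. The translesion polymerase genes DNApol-iota and mus205 had all PQ-fed libraries above the sucrose-fed ones. DNApol-iota averaged 8.21 RPKM in PQ-fed and 7.50 RPKM in sucrose-fed heads, and mus205 1.86 RPKM in PQ-fed and 1.65 RPKM in sucrose-fed heads. Ilp8, a damage-induced hormone of larval discs, was above the floor in all PQ-fed libraries at 1.49, 1.01 and 1.18 RPKM and at the floor in all sucrose-fed ones. Brca2 and Rad1 had all PQ-fed libraries below the sucrose-fed ones. Brca2 averaged 5.18 RPKM in PQ-fed and 5.81 RPKM in sucrose-fed heads, and Rad1 1.33 RPKM in PQ-fed and 1.62 RPKM in sucrose-fed heads. CG34314 held the same value as Rad1 in every library, so that value cannot be credited to Rad1 alone.

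Base excision repair (9 genes tested, median log2 fold change -0.06), mismatch repair (4 genes, -0.01), translesion synthesis and lesion reversal (7 genes, 0.06) and nucleotide supply (5 genes, -0.01) had 0 genes past limma's test in either direction and 0 at an unadjusted p under 0.05. Genes of replication were barely present: RnrL, the large subunit of ribonucleotide reductase, was at the floor in 5 libraries. By the gene ontology terms in the deposited table, a list added after the values were seen, 48 DNA repair genes besides the members could be tested. Of these, 15 were positive and 33 negative, 0 passed limma's test and 1 in each direction had an unadjusted p under 0.05, beside 4153 positive and 5693 negative over all genes tested. For 76 genes of the DNA damage response the split was 47 positive and 29 negative, with 0 past the test and 5 higher and 1 lower unadjusted, where 2.21% and 1.67% of all genes tested were. The difference of either split from that of all genes was not tested.

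**Figure D4:**
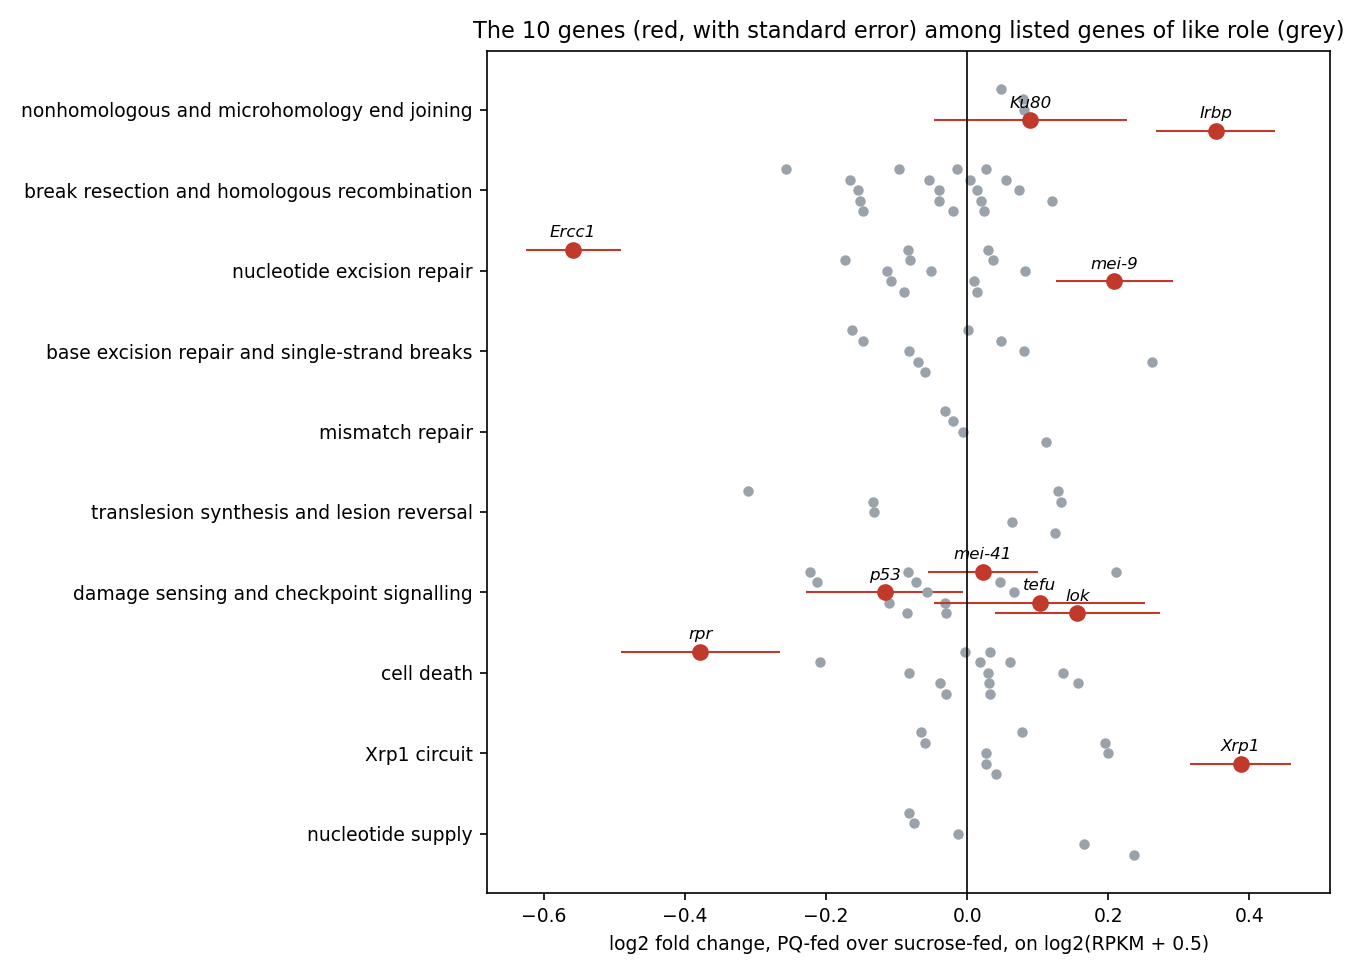
Log2 fold change of PQ-fed over sucrose-fed heads on log2(RPKM + 0.5) (horizontal axis) for the 10 genes (red, bar: standard error) and the 92 other genes tested in 10 lists by role (grey; vertical offsets within a list only separate points). The grey genes lie between -0.31 and 0.26. Xrp1 (0.39), Irbp (0.35), rpr (-0.38) and Ercc1 (-0.56), whose choice used these values, lie outside that range.

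The nearest genes on either side of the 10 on the chromosome, and genes overlapping them, are described next. Whether a whole stretch differed was not tested. Of 24 neighbouring or overlapping genes 22 could be tested, and 0 passed limma's test. An unadjusted p under 0.05 was reached by 2, beside 2.21% of all genes tested as higher and 1.67% as lower. Log2 fold changes of the 22 ran from -0.21 to 0.36 (median -0.03). The neighbour with the highest was CG2982, 639 bp from mei-9 on the opposite strand. It had 7.16, 7.86 and 7.18 RPKM in PQ-fed heads, against 6.33, 5.55 and 5.14 RPKM in sucrose-fed heads, a log2 fold change of 0.36 (SE 0.10) (adjusted p = 0.951). Thus a gene beside mei-9 had a larger difference than mei-9 itself, without passing the test. HPS, 1494 bp from Ercc1 on the same strand, had 12.3, 11.2 and 11.6 RPKM in PQ-fed heads, against 13.0, 14.8 and 13.0 RPKM in sucrose-fed heads (-0.20, adjusted p = 0.951). The flanks of Xrp1, CG14291 and CG14290, had log2 fold changes of 0.01 and -0.02, those of Irbp, CG6719 and Ranbp9, -0.11 and 0.13, and those of Ku80 on hand, wek and the overlapping CG31826, 0.02 and 0.00. grim and skl, which flank rpr 93139 and 40153 bp away, are given above.

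The profile over the 6 libraries most like that of Xrp1 was that of CG2982 (root mean square difference of centred log2 values 0.0431), followed by Irbp (0.0461) and ref(2)P (0.0528), where the median over all genes tested was 0.244. ref(2)P, the fly p62 and a receptor of selective autophagy, had 164, 184 and 169 RPKM in PQ-fed heads, against 136, 130 and 124 RPKM in sucrose-fed heads, near Xrp1 in level as well as in profile. In each of Xrp1, Irbp, CG2982 and ref(2)P, sucrose-fed replicate 1 was the sucrose-fed library nearest to the PQ-fed ones. For Ercc1 the most similar profiles were those of snoRNA:Me28S-G2017 (0.0577), CG14966 (0.0813) and CG32364 (0.106), with a median over all genes of 0.291. CG14966, the only one of these with every library well above the floor, had 5.73, 6.32 and 6.28 RPKM in PQ-fed heads, against 8.23, 8.73 and 9.02 RPKM in sucrose-fed heads, a log2 fold change of -0.47 (limma adjusted p = 0.301). These likenesses are over 6 libraries that share 1 contrast and are a description.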

How the data were processed

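RNAseq reads of 50 bp from heads of PQ-fed and sucrose-fed males were mapped by the authors to dm3 with TopHat2 2.0, per the submitters' processing notes, and the authors deposited 1 RPKM value per gene and library. The read counter, its version and its use of strand are not given in the sources used here. All 6 columns matched a sample by name. Counts and depth per gene are unknown, so precision is that between the 3 replicates. A second deposited table of 124 genes holds the authors' own fold changes and z test p-values and was not used.

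Values were tested on log2(RPKM + 0.5), with no further scaling, by limma 3.58.1 (R 4.3.3; two-sided, eBayes with trend, Benjamini-Hochberg over 9853 genes, adjusted p under 0.05), after leaving out the 4751 genes at the floor of 1 RPKM in all libraries. Listed genes were found by their symbol or synonym, or through the RefSeq identifier, positions were taken from the dm3 coordinates of the deposited table, and overlapping genes and transcripts also from Ensembl release 115, of which no coordinate is given. The members and the gene lists were chosen with earlier results of these data known. Named by rule were the members, 27 genes by role, any listed gene past the test, and the 3 genes most like Xrp1 and the 3 most like Ercc1 in profile. Other genes named were chosen after their values were seen. Replicate numbers were not treated as pairs, since same-numbered libraries shared deviations for replicate 1 (Pearson r = 0.41 over the 9853 genes, which are not independent) but not for replicates 2 and 3 (0.06 and 0.05).

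The fit was repeated with a pseudocount of 0.1 or 1, without the filter, with genes averaging 5 RPKM or more, after scaling the RPKM by unweighted trimmed means of M-values or by quantiles, without the eBayes trend, with the replicate number as a block, and without each library in turn. Leaving out both libraries numbered 1, and subtracting 1 RPKM from every value, were added after seeing the data. Figures were drawn with matplotlib 3.10.9.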

Additional observations from a re-analysis of the deposited data

How the results depend on the processing

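Across the alternatives that could be fitted, the log2 fold changes of Xrp1 (0.35 to 0.46), Irbp (0.30 to 0.44), Ercc1 (-1.01 to -0.46), mei-9 (0.17 to 0.30), lok (0.06 to 0.26), p53 (-0.21 to -0.03) and rpr (-0.52 to -0.28) kept their sign. Those of Ku80 (-0.08 to 0.20), mei-41 (-0.03 to 0.06) and tefu (0.00 to 0.22) did not all do so. Ercc1 moved by more than its replicate spread at pseudocounts of 0.1 (-0.68) and 1 (-0.46) and without both libraries numbered 1 (-0.59), and with 1 RPKM subtracted from every value Ercc1 (-1.01), Irbp (0.44) and mei-9 (0.30) did. The 0 calls in either direction among other repair, checkpoint and death genes held under every alternative run. Over all genes tested, the 8 called higher in PQ-fed heads by limma became 9 at a pseudocount of 1 and with trimmed means of M-values, 7 at a mean RPKM of at least 5 and with 1 RPKM subtracted, 5 at a pseudocount of 0.1, 4 with a replicate block, and 0 with no filter, with quantile normalization, without a trend and without both libraries numbered 1, where 210, 219, 224 and 489 had an unadjusted p under 0.05. Leaving out single libraries gave 0 to 5 (5 without PQ-fed replicate 1, 0 in the other 5 settings). The 0 called lower became 1 with no filter. That gene was Ercc1, whose standard error there was 0.022, against 0.07 with the filter. It is a member, so this is a description. The causes of these differences were not tested. Of the 10 genes, 9 lie in the lowest 25% of levels, though only mei-41 has libraries at the floor. With 3 libraries a group a gene that missed the threshold is not shown to be unchanged.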
